A study of Mus musculus with 12 samples.

Results

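Astrocytes are the supporting glial cells of brain and spinal cord that take up transmitter, buffer ions and water around neurons and are joined to one another by gap junctions. The 9 genes described here mark them: the glutamate transporters Slc1a2 (GLT-1) and Slc1a3 (GLAST), the glutamine synthetase gene Glul, the sodium bicarbonate cotransporter Slc4a4, the water channel Aqp4, the gap junction protein gene Gja1 (connexin 43), the intermediate filament gene Gfap, the folate enzyme gene Aldh1l1 and the brain aldolase gene Aldoc. Their probe sets were taken where the platform annotation gave exactly 1 gene symbol and that symbol was one of the 9. This gave 34 of the 45037 probe sets tested: 6 each for Slc1a3 and Gja1, 5 each for Slc1a2 and Slc4a4, 3 each for Aqp4 and Gfap, and 2 each for Aldh1l1, Glul and Aldoc. All 34 were tested, with no filter on low values. A further Slc1a2 probe set, annotated to several genes, was left out.

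The arrays came from untreated mice aged 2 months that either lacked exon 5 of Gdap1 (Gdap1-/-, knockout, KO) or were wild type (WT). The product of Gdap1 sits in the outer membrane of mitochondria, and its mutations cause a form of Charcot-Marie-Tooth neuropathy. The study asked which transcripts differ in its absence. For each genotype, motoneurons isolated by laser dissection and lysates of whole sciatic nerve were profiled on 3 arrays per tissue, 12 in all. Per the design text, RNA was prepared from 5 mice and the arrayed samples were chosen for its amount and quality. The labels give no strain, sex or number of captured cells, and call the replicates of a group biological. The Gdap1 probe sets lie in exons 4 and 6, outside the deletion, per the design text, so they check nothing about the genotype labels.

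Motoneurons lie among astrocyte processes, which wrap the cell body and its synapses and clear glutamate released there. Sciatic nerve holds Schwann cells in place of astrocytes. Several of the 9 genes are also made elsewhere: Gja1 in fibroblasts and vascular smooth muscle, Glul in muscle and liver, and Aqp4 in the membrane of fast muscle fibres. A captured motoneuron array therefore measures whatever RNA was cut out with the neuron, and fewer astrocyte profiles in the cut and less RNA per astrocyte cannot be told apart.

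Medians of the deposited log2 values lay between 6.53 and 6.59 on the motoneuron arrays and at 8.29 or above on the nerve arrays. Motoneuron markers were present in the captured samples. The mean log2 level over 13 such genes was 11.98 to 12.28 in KO motoneurons and 11.95 to 12.26 in WT motoneurons, against 7.22 to 7.44 in KO nerve and 7.02 to 7.48 in WT nerve. Astrocyte genes were measured beside them. The 9 brightest probe sets, 1 per gene by the highest mean over the 12 arrays, averaged 11.29, 10.98 and 11.27 in the 3 KO motoneuron arrays, against 11.60, 11.30 and 11.54 in the 3 WT ones.

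Among the motoneuron arrays, WT replicate 3 and KO replicate 2 stood apart. WT motoneuron replicate 3 had a mean correlation across probe sets of 0.9890 with the KO motoneuron arrays and of 0.9867 with the other WT ones, whereas WT replicates 1 and 2 lay closer to their own genotype (0.9898 and 0.9888, against 0.9871 and 0.9844 with KO). KO motoneuron replicate 2 had the lowest value of the 6 motoneuron arrays at 18 of the 34 probe sets and at 5 of the 9 brightest ones. Its Xist level, 5.18, also lay below the 9.37 to 10.38 of the other motoneuron arrays. The results are given with and without these arrays.

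At the brightest probe sets of 5 of the 9 genes, Slc4a4, Slc1a3, Aqp4, Gja1 and Glul, every KO motoneuron array lay below every WT motoneuron array, which held for 11.9% of all genes. The arrays of Slc1a2, Gfap, Aldh1l1 and Aldoc overlapped. Of the 9 brightest probe sets 6 read lower and 3 higher in KO, with a median log2 difference of -0.18 against 0.019 over all 18193 genes. With each gene averaged over its probe sets the median was -0.068. None of the 34 probe sets passed an adjusted p of 0.05 by limma, nor did any of the 45037 (0% called). The smallest adjusted p among the 34 was 0.0945, for Slc4a4. At an unadjusted p under 0.05, 10 of the 34 read lower and 1 higher, against 8.24% and 8.78% of all probe sets.

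The 5 genes whose brightest probe sets separated the genotypes are shown with their promoters, as far as RefSeq promoter windows were at hand, so that their sequence can be set beside the values that follow. Each window of 300 bases spans the annotated start of the gene and runs 5′ to 3′ along the gene's strand, from RefSeq on build GRCm38.p6. Capitals mark matches on either strand to 3 motifs, none of which overlapped: the CCAAT box (CCAAT or ATTGG), the AP-1 site (TGAGTCA or TGACTCA) and the nuclear factor I letters (TTGGCA or TGCCAA). Windows of 8 of the 9 genes were matched, 10 in all, and the 5 shown are those of Slc4a4, Slc1a3, Gja1 and Glul, with both starts of Slc4a4.
Slc4a4, first start, chr5:88887010-88887309, plus strand: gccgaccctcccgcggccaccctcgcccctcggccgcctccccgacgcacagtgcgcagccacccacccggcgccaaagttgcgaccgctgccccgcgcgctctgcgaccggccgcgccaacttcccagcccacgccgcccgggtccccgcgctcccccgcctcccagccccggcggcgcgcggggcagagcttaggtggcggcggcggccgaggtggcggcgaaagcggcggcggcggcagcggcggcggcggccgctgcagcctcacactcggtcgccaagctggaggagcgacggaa
Slc4a4, second start, chr5:89027716-89028015, plus strand: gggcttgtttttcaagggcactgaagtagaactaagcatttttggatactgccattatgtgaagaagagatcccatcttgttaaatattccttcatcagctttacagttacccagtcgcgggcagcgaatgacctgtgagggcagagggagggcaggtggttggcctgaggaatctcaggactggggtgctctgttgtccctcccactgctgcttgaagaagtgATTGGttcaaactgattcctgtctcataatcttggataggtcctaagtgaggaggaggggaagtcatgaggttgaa
Slc1a3, chr15:8710758-8711057, minus strand: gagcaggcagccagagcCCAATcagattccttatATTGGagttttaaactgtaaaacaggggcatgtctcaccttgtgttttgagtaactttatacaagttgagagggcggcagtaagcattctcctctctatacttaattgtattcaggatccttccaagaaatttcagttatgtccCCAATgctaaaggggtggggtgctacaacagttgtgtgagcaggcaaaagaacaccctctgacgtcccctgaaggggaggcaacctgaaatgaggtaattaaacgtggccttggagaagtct
Gja1, chr10:56377050-56377349, plus strand: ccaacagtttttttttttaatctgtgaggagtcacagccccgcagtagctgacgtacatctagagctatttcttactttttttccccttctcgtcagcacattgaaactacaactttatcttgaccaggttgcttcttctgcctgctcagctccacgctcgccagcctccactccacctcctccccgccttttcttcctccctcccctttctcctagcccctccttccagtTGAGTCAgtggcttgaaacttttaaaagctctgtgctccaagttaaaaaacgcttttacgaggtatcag
Glul, chr1:153899679-153899978, plus strand: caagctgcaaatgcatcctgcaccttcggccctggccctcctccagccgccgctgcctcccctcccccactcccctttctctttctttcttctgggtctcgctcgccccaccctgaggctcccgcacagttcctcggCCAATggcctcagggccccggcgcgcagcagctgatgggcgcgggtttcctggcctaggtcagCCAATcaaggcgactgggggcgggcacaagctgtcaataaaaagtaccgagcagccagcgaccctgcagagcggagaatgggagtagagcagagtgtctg
The CCAAT box stood 3 times in the Slc1a3 window, 2 times in that of Glul and once in the second Slc4a4 window. Of the 10 windows 4 held it, against 37.4% of all 32851 promoter windows. The AP-1 letters were in the Gja1 window alone of the 10, against 5.20% of all, and the nuclear factor I letters in 1 window of Aldoc, against 14.1% of all. The matches are a description of these letters and no evidence of binding.

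Glutamate uptake was measured by 11 probe sets of 2 transporters, and the transporters differed from each other. For Slc1a3 the brightest probe set (1452031_at) read 7.36, 7.47 and 7.77 in the KO motoneuron arrays, against 8.47, 8.39 and 8.17 in the WT ones. All KO arrays were below all WT arrays, and the difference of -0.81 (SE 0.20) had an adjusted p of 0.131 by limma. A dimmer Slc1a3 probe set (1426340_at) separated in the same way, at 4.83, 4.77 and 5.04 in KO and 5.31, 5.31 and 6.14 in WT. Its difference of -0.71 (SE 0.26, adjusted p = 0.241 by limma) was -0.43 without WT replicate 3. The other 4 Slc1a3 probe sets overlapped between genotypes, and over all 6 the differences ran between -0.81 and 0.28.

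Slc1a2, the main glutamate transporter of mature astrocytes, did not follow Slc1a3. Its brightest probe set (1438194_at) read 12.70, 12.27 and 12.59 in KO motoneurons, against 12.36, 11.76 and 12.90 in WT motoneurons. The genotypes overlapped, with WT arrays both highest and lowest, and the difference was 0.18 (SE 0.26, adjusted p = 0.780 by limma). Among its 5 probe sets 3 read lower and 2 higher in KO, between -0.36 and 0.18. Only 1 of them separated the genotypes, a dim one (1433094_at) at 5.44, 5.64 and 5.41 in KO and 5.72, 5.72 and 5.73 in WT. That difference was -0.23 (SE 0.18, adjusted p = 0.560 by limma).

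Glul, whose enzyme turns the glutamate taken up into glutamine, gave opposite signs at its 2 probe sets. The brighter (1426236_a_at) read 14.23, 14.29 and 14.19 in KO motoneurons, against 14.39, 14.36 and 14.51 in WT motoneurons. The genotypes did not overlap, but the step was small, at -0.18 (SE 0.051, adjusted p = 0.151 by limma). The dimmer (1426235_a_at) read 11.20, 11.74 and 11.23 in KO, against 10.63, 10.44 and 11.39 in WT. WT replicate 3 alone among the WT arrays reached the KO values there, and the difference was 0.57 (SE 0.26, adjusted p = 0.318 by limma). Which of these probe sets tracks the whole Glul transcript was not tested.

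Slc4a4, which carries sodium with bicarbonate across the astrocyte membrane and buffers pH, had the largest difference among the 34 probe sets. The brightest of its 5 (1434096_at) read 10.46, 10.23 and 10.34 in KO motoneurons, against 11.46, 11.46 and 11.07 in WT motoneurons. The means were 10.35 ± 0.11 in KO and 11.33 ± 0.22 in WT (SD, n = 3 each), a difference of -0.98 (SE 0.14, adjusted p = 0.0945 by limma). The remaining Slc4a4 probe sets did not share it. The next (1452071_at) differed by -0.34 (SE 0.21), and the other 3 by 0.57 (1426432_a_at, SE 0.27), 0.22 (SE 0.39) and 0.16 (SE 0.20), all with overlapping arrays.

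Aqp4, the water channel of astrocyte endfeet, was tightly measured in both genotypes. At its brightest probe set (1434449_at) the KO motoneuron arrays read 10.86, 10.73 and 10.89 and the WT ones 11.42, 11.26 and 11.32. The gap exceeded the spread within each genotype, with means of 10.83 ± 0.087 in KO and 11.33 ± 0.081 in WT (SD, n = 3 each). The difference was -0.51 (SE 0.10, adjusted p = 0.115 by limma). A dimmer Aqp4 probe set (1447745_at) went the other way. It read 5.53, 4.93 and 4.93 in KO and 4.23, 4.28 and 4.70 in WT, which gave 0.72 (SE 0.24, adjusted p = 0.198 by limma). It was the only one of the 34 with every KO array above every WT array, against 12.7% of all probe sets. The third (1425382_a_at) differed by 0.35 (SE 0.36) and overlapped. That difference was 0.78 without WT replicate 3 (adjusted p = 0.0664 by limma), and the lowest value under any alternative was -0.33.

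Gja1 encodes the channel protein that couples astrocytes. In 5 of its 6 probe sets every KO motoneuron array lay below every WT array, which held for 9.77% of all probe sets. The widest separation (1415800_at) was 11.41, 10.80 and 11.12 in KO, against 12.10, 11.88 and 11.88 in WT. That is a difference of -0.84 (SE 0.16, adjusted p = 0.108 by limma). At the brightest probe set (1437992_x_at) the KO arrays read 11.59, 11.11 and 11.56 and the WT arrays 12.03, 11.60 and 11.87, so the highest KO value lay only just under the lowest WT value. The difference there was -0.41 (SE 0.16), with an adjusted p of 0.265 by limma. The other 3 that separated, all with the _x_at suffix by which the array maker marks probes that may match further sequences, differed by -0.66, -0.39 and -0.36. The dimmest (1415801_at) read 0.41 higher in KO (SE 0.24) with overlapping arrays. Probe sets of 1 gene may measure the same transcripts, which was not looked up, and cannot be taken as independent.

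Gfap, Aldh1l1 and Aldoc, all widely used to identify astrocytes, showed no such gap at their brightest probe sets. Gfap (1426508_at) read 11.05, 10.17 and 10.85 in KO motoneurons and 11.11, 10.43 and 10.54 in WT motoneurons. Aldh1l1 (1424400_a_at) read 9.32, 8.70 and 9.16 in KO and 9.08, 8.42 and 9.62 in WT. In both genes replicate 2 was the lowest array of its genotype, and the genotypes overlapped. The differences were 0.0020 (SE 0.26) for Gfap and 0.014 (SE 0.32) for Aldh1l1, with adjusted p of 0.998 and 0.989 by limma. Their standard errors are wide enough to contain differences of the size seen for Gja1, so these values do not show that the 2 genes were alike in both genotypes.

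Aldoc, the aldolase that marks astrocytes in adult brain, was measured more precisely. Its brightest probe set (1451461_a_at) read 14.05, 13.82 and 14.07 in KO motoneurons, against 14.09, 14.00 and 13.89 in WT motoneurons, a difference of -0.016 (SE 0.080, adjusted p = 0.945 by limma). Its dimmer probe set (1424714_at) read 9.22, 8.86 and 8.90 in KO and 9.74, 9.85 and 9.13 in WT. Only WT replicate 3 reached the KO values there, and the difference was -0.58 (SE 0.23, adjusted p = 0.258 by limma). The 2 further Gfap probe sets differed by -0.16 and 0.017, and the further Aldh1l1 one by 0.056.

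**Figure D1:**
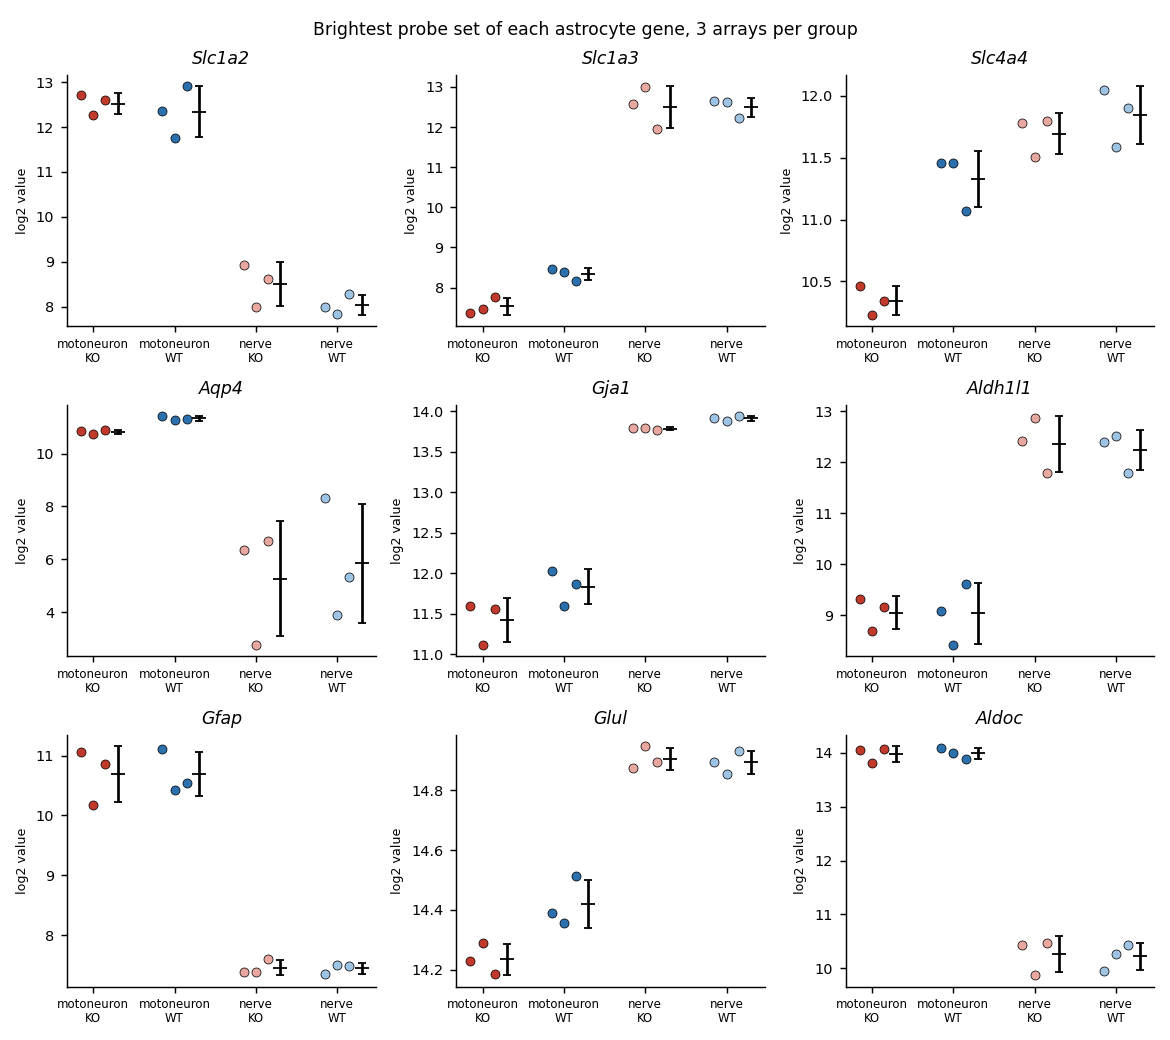
Deposited log2 values (vertical axes, scaled per gene) of the brightest probe set of each of the 9 genes in KO and WT motoneurons and in KO and WT sciatic nerve; points are arrays, and bars are means ± SD (n = 3). KO motoneuron points lie below WT motoneuron points for Slc1a3, Slc4a4, Aqp4, Gja1 and Glul, and overlap them for Slc1a2, Aldh1l1, Gfap and Aldoc.

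Over all 34 probe sets, 19 read lower and 15 higher in KO motoneurons, with a median of -0.13 against 0.039 over all 45037. In 11 of the 34 every KO array lay below every WT array, against 9.77% of all probe sets. The lower values sat mainly among brighter probe sets. Of 23 whose mean in motoneurons exceeded the median of all probe sets, 15 read lower and 8 higher. Their median difference was -0.18, against 0.031 over all probe sets of that level. In 9 of the 23 the genotypes separated downwards, and 5 of these belonged to Gja1. The share among all probe sets of that level was not counted, so the 9.77% is not matched for level. Small p were commoner there. In a limma fit of the brighter probe sets alone, 5999 of 22518 had an unadjusted p under 0.05, and 9 of the 23 did. In the fit of all 45037, the number was 7665. Of the 11 at or below the median level, 4 read lower and 7 higher, with a median of 0.15 against 0.046. Slc1a3, Aqp4, Slc4a4, Gja1 and Glul all held probe sets of both signs.

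**Figure D2:**
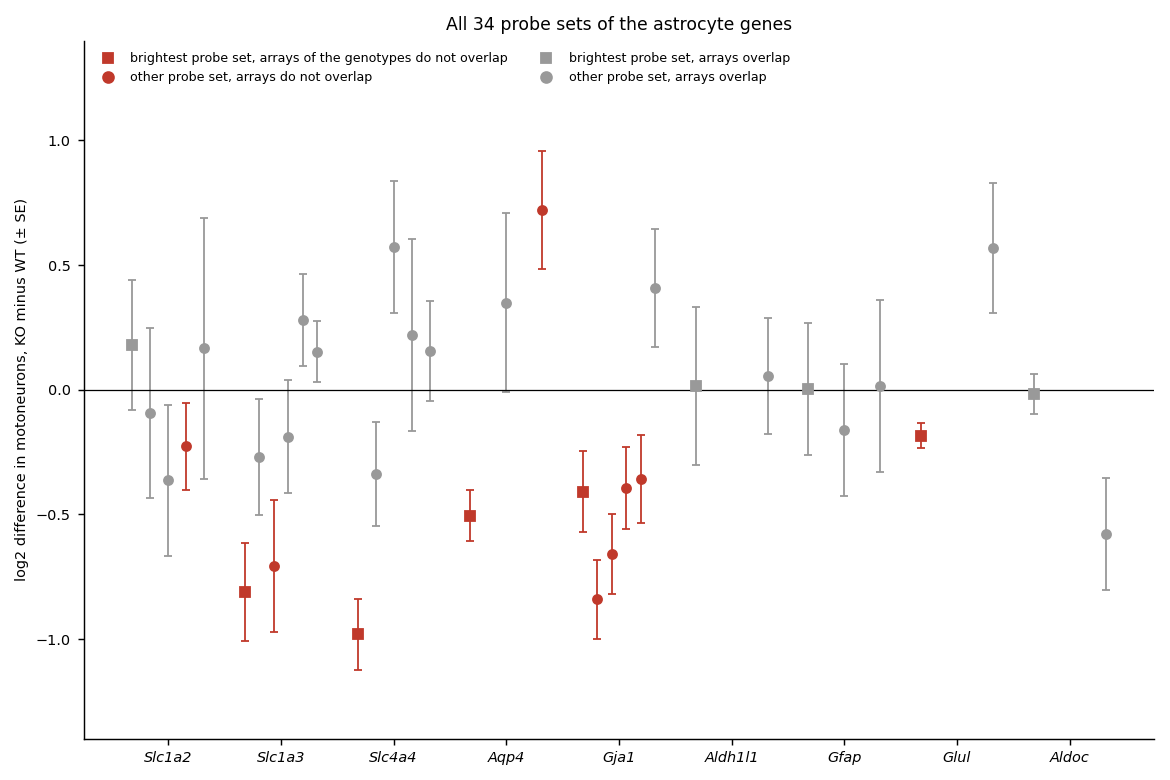
Log2 difference between KO and WT motoneurons (vertical axis, ± SE from limma, 3 arrays per genotype) for all 34 probe sets, grouped by gene with the brightest at the left of each group. Red marks the 11 probe sets with all KO arrays below all WT arrays and the 1 (Aqp4, 0.72) with all KO arrays above.

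The calls depended on WT motoneuron replicate 3. Without it, 6 of the 34 probe sets passed an adjusted p of 0.05, 5 lower (5.64% of all probe sets) and 1 higher (4.68%). Without any one of the other 5 motoneuron arrays, none passed. Lower in KO were Slc4a4 (1434096_at) by -1.11 (SE 0.11, adjusted p = 0.0049), Gja1 (1415800_at) by -0.88 (adjusted p = 0.0231), Aqp4 (1434449_at) by -0.51 (adjusted p = 0.0264), Aldoc (1424714_at) by -0.80 (adjusted p = 0.0289) and Slc1a3 (1452031_at) by -0.89 (adjusted p = 0.0384), all by limma. Higher was the dimmer Glul probe set (1426235_a_at), by 0.85 (SE 0.18, adjusted p = 0.0261 by limma). The differences of Slc4a4, Gja1, Aqp4 and Slc1a3 themselves moved by less than their standard errors, and 10.3% of all probe sets passed without that array. Nothing in the labels sets it apart. It stood out only by the values tested here, as the WT array most like the KO ones. Calls made without it are therefore a description and no independent support. With all 6 arrays kept and weighted by limma's array weights, 6 of the 34 passed, all lower (3.8% of all probe sets lower, 2.7% higher, 6.5% in all): Slc4a4, Slc1a3, Aqp4, the brighter Glul probe set and 2 of Gja1. In 1 fit of all 12 arrays, which shares the spread with nerve, 3 passed, all lower (1.23% of all lower, 0.604% higher, 1.84% in all): Slc4a4 and 2 of Gja1.

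Without KO motoneuron replicate 2, the array most often the lowest, Slc4a4 differed by -0.92, Slc1a3 by -0.78, Aqp4 by -0.46 and Glul by -0.21. Gja1 at its brightest probe set stood at -0.26, against -0.41 with all arrays, and Gfap, Aldh1l1 and Slc1a2 stood at 0.26, 0.19 and 0.30. The number of the 9 genes that read lower was then 5, and their median was -0.21. The smallest adjusted p among the 9 was 0.218 by limma. In nerve, Xist read 6.06, 4.99 and 12.54 in KO and 5.12, 12.49 and 4.49 in WT. Of the motoneuron arrays, KO replicate 2 alone had an Xist level far below the rest. A fit with Xist as a covariate is therefore close to leaving that array out and is no separate check. With the Xist level of each array as a covariate, Slc4a4 differed by -0.90, Slc1a3 by -0.78, Aqp4 by -0.43, Glul by -0.22 and Gja1 by -0.18 (SE 0.14). Gfap, Slc1a2, Aldh1l1 and Aldoc stood at 0.40, 0.38, 0.29 and 0.100 in that fit, where the smallest adjusted p among the 9 was 0.264 by limma.

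**Figure D3:**
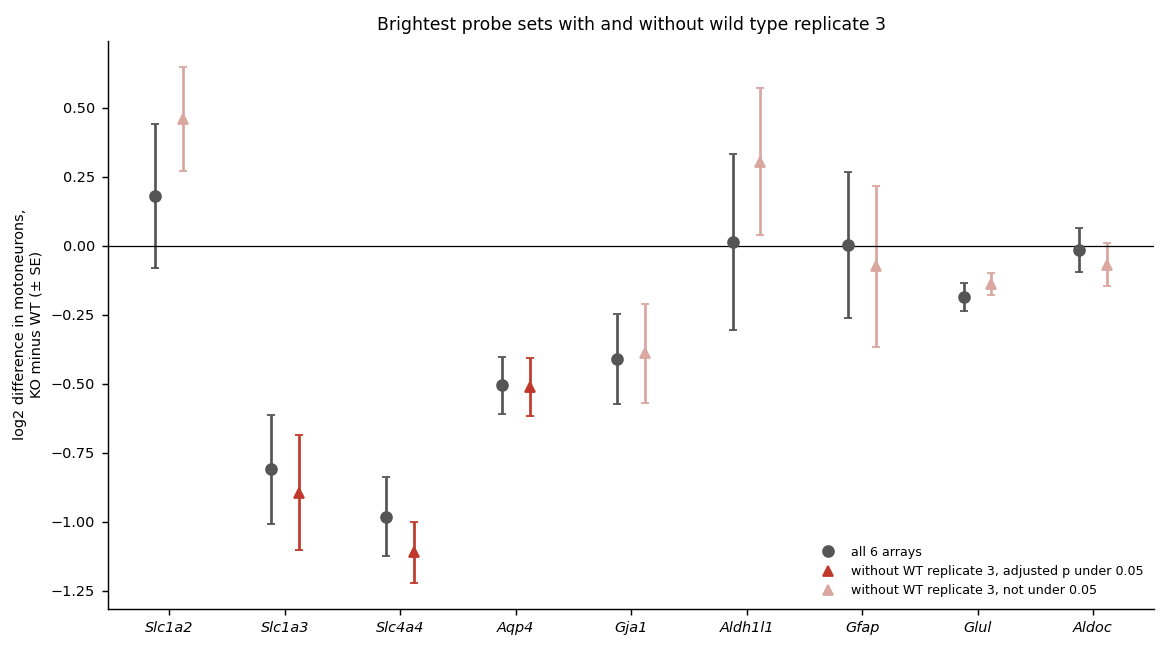
Log2 difference between KO and WT motoneurons (vertical axis, ± SE from limma) for the brightest probe set of each gene, with all 6 arrays (circles) and without WT replicate 3 (triangles). Red triangles mark Slc1a3, Slc4a4 and Aqp4, whose adjusted p was under 0.05 in the smaller set of arrays, while each difference shifted by less than its standard error with all 6 arrays, except that of Slc1a2.

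Control probe sets on the same arrays also varied with the genotype. The 18S ribosomal RNA controls averaged 10.98, 10.90 and 10.72 in KO motoneurons, against 10.37, 10.44 and 10.86 in WT motoneurons, so that WT replicate 3 lay among the KO arrays. The spiked-in bioB control read 10.45, 10.22 and 10.39 in KO motoneurons and 10.82, 11.05 and 11.03 in WT motoneurons, without overlap. It split the nerve arrays by genotype too, at 10.30, 10.38 and 10.28 in KO and 11.47, 11.19 and 11.20 in WT. Whether the genotype differences in either tissue go with this control was not tested. In motoneurons the difference between the 3' and 5' beta-actin controls, a measure of RNA integrity, was 1.53, 1.67 and 1.50 in KO and 1.70, 1.97 and 1.62 in WT. With the 18S level as a covariate, chosen after seeing the data, Slc4a4 differed by -0.79, Slc1a3 by -0.57, Aqp4 by -0.47, Gja1 by -0.39 and Glul by -0.27. With the actin measure the same 5 genes stood at -0.89, -0.78, -0.59, -0.67 and -0.22. The other 4 genes also moved. Aldh1l1 differed by -0.41 (SE 0.37) with 18S and by -0.61 (SE 0.22) with actin, Slc1a2 by -0.23 (SE 0.28) and -0.38 (SE 0.13), Gfap by 0.17 (SE 0.35) and -0.31 (SE 0.31), and Aldoc by 0.094 (SE 0.092) and -0.052 (SE 0.11). Thus 7 of the 9 genes read lower with 18S and 9 with actin, against 6 with no covariate. The smallest adjusted p among the 9 was 0.343 with 18S and 0.528 with actin, by limma.

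Further astrocyte genes leaned the same way, with 22 of 31 measured lower and 9 higher in KO motoneurons and a median of -0.15. The share lower among all genes was 47.3%. This list, like the other gene lists, was chosen with earlier results of these data known. Its lean is therefore a description and no independent check. In 6 of the 31 every KO array lay below every WT array (11.9% of all genes), and in 1 above (13.9%), while 7 were lower at an unadjusted p under 0.05 (10.9% of all genes). Tissue factor, F3, which astrocytes make in the central nervous system, read 6.16, 5.72 and 6.31 in KO and 7.55, 7.16 and 7.18 in WT. It differed by -1.23 (SE 0.23, adjusted p = 0.108 by limma), more than any of the 34 probe sets. The claudin Cldn10 differed by -0.91 (SE 0.18), the GABA transporter Slc6a11 by -1.14 (SE 0.28) and the membrane protein Ttyh1 by -0.47 (SE 0.11), each without overlap and with adjusted p of 0.114, 0.133 and 0.124 by limma. These genes were named for their small p, and all of them read lower. Without WT replicate 3, 3 genes of the list passed lower and 1 higher (8.4% and 5.62% of all genes), while the list's median moved to -0.044.

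Genes listed for the glutamate and glutamine cycle were nearly level. Of 13 measured, 7 read lower and 6 higher, with a median of -0.012. The neuronal glutamate transporter Slc1a1 differed by -0.052 (SE 0.040), the Purkinje cell transporter Slc1a6 by 0.25 (SE 0.26), the glutamine carrier Slc38a2 by -0.13 (SE 0.079) and the mitochondrial aspartate aminotransferase Got2 by 0.078 (SE 0.038). Relatives of the 9 genes split evenly, 11 lower and 11 higher of 22, with a median of -0.016. The lowest p among them belonged to the neuronal connexin Gjd2 at -0.28 (SE 0.091), followed by the bicarbonate transporter Slc4a10 at -0.72 (SE 0.29), the connexin Gjc1 at -0.86 (SE 0.35) and the filament gene Vim at -0.51 (SE 0.22).

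Genes that reactive astrocytes induce after injury were measured as well. Of 20, 13 read lower and 7 higher, with a median of -0.25, or -0.10 without WT replicate 3. In 2 of the 20 every KO array lay below every WT array, close to the 11.9% of all genes. S100a10, which encodes a partner of annexin, differed by -0.21 (SE 0.058, adjusted p = 0.151 by limma) and the chemokine gene Cxcl10 by -0.49 (SE 0.20), both without overlap. Vim is on this list too, and the lipopolysaccharide co-receptor gene Cd14 differed by -0.60 (SE 0.33). None of the genes on the glutamate cycle, relatives and reactive lists passed in the main fit of all 6 arrays. Over the alternative fits, the lowest adjusted p by limma was 0.0367 for S100a10 and 0.0477 for Gjd2, both under 0.05. Without WT replicate 3, 1 relative, Slc4a10, passed (-1.07, adjusted p = 0.0087 by limma), against 8.4% of all genes lower.

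Oligodendrocyte and vascular markers read lower in KO together with the astrocyte genes on the motoneuron arrays. All 10 oligodendrocyte markers measured read lower in KO, with a median of -0.28 and mean log2 levels of 11.11 to 11.69 in KO and 11.53 to 12.05 in WT. The myelin genes Mbp at -0.21 (SE 0.047) and Cldn11 at -0.91 (SE 0.24) led them, with Tspan2 at -0.50 and Ermn at -0.60. Of 11 endothelial and mural markers 10 read lower, with a median of -0.37 and mean levels of 6.39 to 6.78 in KO and 6.84 to 7.19 in WT, which did not overlap. Rgs5 differed by -0.79, Cdh5 by -0.40, Esam by -0.96 and Acta2 by -0.99, the last mainly through WT replicate 3 (-0.31 without it). KO replicate 2 was the lowest array for the astrocyte, further astrocyte, oligodendrocyte and endothelial means alike.

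Neuronal markers had medians near 0 with all 6 arrays. Of 13 motoneuron markers 7 read lower and 6 higher, with a median of -0.053. Isl1, a motoneuron transcription factor, differed by -0.51 (SE 0.11), Ache by 0.25 (SE 0.094) and the neurofilament genes Nefl and Nefh by -0.063 and -0.075. Interneuron markers had a median of 0.053, with mean levels of 9.28 to 10.12 in KO and 9.23 to 10.01 in WT. KO replicate 2 and WT replicate 3 were the low arrays there, at 9.28 and 9.23, with every other motoneuron array at 9.90 or above. Without WT replicate 3 the interneuron median was -0.19, lower in KO like the oligodendrocyte (-0.25) and endothelial (-0.33) lists, and the motoneuron median 0.0097. The microglia and Schwann cell medians were then above 0, at 0.060 and 0.11. Microglia and macrophage markers had a median of -0.0053 over 12 genes, Schwann cell markers 0.068 over 9, fibroblast markers -0.12 over 8 and skeletal muscle markers 0.086 over 8. Their mean log2 levels on the motoneuron arrays lay at 6.83 to 7.15 in KO and 6.70 to 7.15 in WT for microglia, 7.68 to 7.78 in KO and 7.57 to 7.68 in WT for Schwann cells, 6.30 to 6.38 in KO and 6.32 to 6.59 in WT for fibroblasts, and 5.43 to 5.82 in KO and 5.33 to 5.57 in WT for muscle. The part of glial or vascular content in the astrocyte values was not tested.

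**Figure D4:**
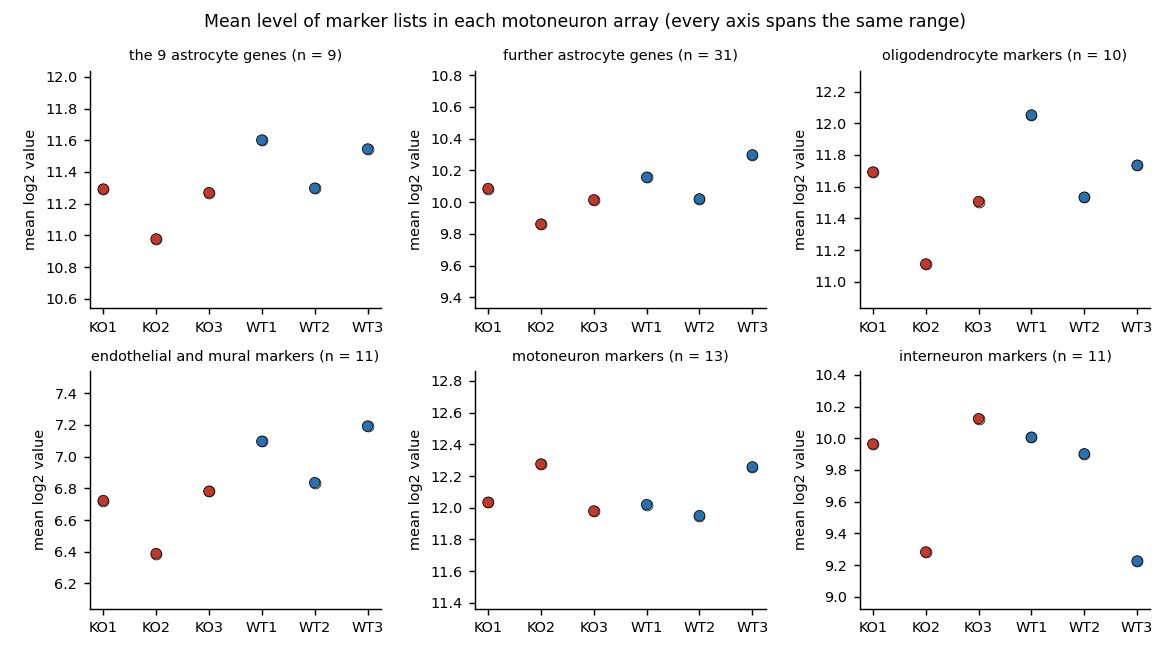
Mean log2 level (vertical axes, each spanning 1.5 log2 units) of 6 gene lists on each KO (red) and WT (blue) motoneuron array, with n the number of genes measured. KO replicate 2 is lowest for the 9 astrocyte genes (10.98), the oligodendrocyte markers (11.11) and the endothelial markers (6.39), and WT replicate 3 is lowest for the interneuron markers (9.23).

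The genes whose values over the 6 motoneuron arrays lay closest to each astrocyte gene were sought among 11809 genes above the median level, by the root mean square difference of mean-centred log2 values. Of the 9 genes, Slc1a2 and Aldh1l1 were each among the 3 closest to the other, at 0.10. The proteasome subunit gene Psmb8 was the closest to both, at 0.067 from Aldh1l1 and 0.091 from Slc1a2. Carhsp1 was the third for Aldh1l1 and Pcdh15 the third for Slc1a2. For Slc4a4 the closest were Pdcl at 0.052, Wdr82 and Pym1, and for Slc1a3 Rab8b at 0.11, Nck2 and D030056L22Rik. Aqp4 lay nearest to Isl1 at 0.043, Fam131b and Tgfbr2, and Gja1 to Rock1 at 0.058, Rab31 and Jmy. Glul had Trappc13 at 0.031, Srp14 and Ndufb6, Gfap had Vtn at 0.11, Zfp597 and Asb18, and Aldoc had Timm9 at 0.025, Snx27 and Ppp2r2c. With 6 arrays this likeness is a description of these arrays.

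In sciatic nerve the astrocyte genes showed little difference by genotype. Of the 34 probe sets 19 read lower and 15 higher in KO, with a median of -0.032 against 0.010 over all probe sets. None passed, every adjusted p being 1 by limma (0% of all probe sets called), and 3 had an unadjusted p under 0.05, all lower (1.12% of all lower and 1.19% higher). In 4 of the 34 every KO nerve array lay below every WT nerve array (3.67% of all), and all 4 belonged to Gja1. In 1, a Slc1a2 probe set (1459014_at), every KO array lay above (3.58% of all).

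Gja1 in nerve was measured with little spread. Its brightest probe set read 13.79, 13.79 and 13.76 in KO nerve, against 13.91, 13.88 and 13.94 in WT nerve, a difference of -0.13 (SE 0.051). The others that separated differed by -0.20 (1415800_at, SE 0.075), -0.17 (1438945_x_at, SE 0.074) and -0.16 (1438650_x_at, SE 0.065). Slc4a4 read 11.78, 11.50 and 11.80 in KO and 12.05, 11.59 and 11.90 in WT, which overlapped, at -0.15 (SE 0.15). Slc1a3 read 12.57, 12.99 and 11.95 in KO and 12.64, 12.61 and 12.22 in WT, with a difference of 0.011 (SE 0.25). Replicate 3 was the lowest array of both genotypes for Slc1a3 and, at 11.79 in KO and 11.79 in WT, for Aldh1l1.

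Aqp4 varied more in nerve than any other of the brightest probe sets. It read 6.35, 2.76 and 6.70 in KO nerve, against 8.31, 3.88 and 5.35 in WT nerve, a difference of -0.57 (SE 1.35). The mean level of 8 skeletal muscle markers varied on the same arrays, at 11.17, 9.96 and 10.89 in KO nerve and 13.99, 8.29 and 12.84 in WT nerve. In each genotype the replicate 2 array was the lowest for both Aqp4 and the muscle markers. The part of adhering muscle in the Aqp4 values was not tested. Glul read 14.87, 14.95 and 14.89 in KO nerve and 14.89, 14.85 and 14.93 in WT nerve, differing by 0.012 (SE 0.042). Slc1a2 averaged 8.51 ± 0.48 in KO and 8.04 ± 0.22 in WT (SD, n = 3 each), differing by 0.47 (SE 0.26) with overlapping arrays, while Gfap and Aldoc differed by 0.0093 (SE 0.15) and 0.038 (SE 0.21).

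Whether the genotype difference in motoneurons departed from that in nerve was tested as an interaction over the 12 arrays. No member passed (0% of all probe sets called). Of the 34, 5 were lower and 2 higher at an unadjusted p under 0.05, against 3.81% and 3.73% of all probe sets. The median over the 9 genes was -0.20, against 0.017 over all genes, so the motoneuron differences were the more negative. Slc4a4 had the smallest adjusted p, 0.558, at -0.83 (SE 0.21), with Gja1 (1415800_at) at -0.64 (SE 0.18), Slc1a3 at -0.82 (SE 0.33) and Glul at -0.20 (SE 0.067). A difference between the tissues is thus not shown for any of the 34. The brightest probe sets of Slc4a4, Slc1a3, Aqp4 and Glul separated the genotypes in motoneurons and overlapped in nerve, and that of Gja1 separated them in both.

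Between tissues the 9 genes fell into groups, and the scaling set part of the picture, since the tissues appeared to have been normalized apart. Relative to nerve, motoneurons were higher in Aqp4, Slc1a2, Aldoc and Gfap and lower in Slc1a3, Aldh1l1 and Gja1 under all 3 scalings tried, whereas Slc4a4 and Glul changed side. Under the deposited scaling the median over all probe sets was -1.04 in KO and -1.09 in WT mice, so values are best read against that shift. It became 0.16 in KO and 0.15 in WT after quantile normalization of both tissues together, done for the 6 arrays of each genotype, and 0.74 in KO and 0.67 in WT after centring each array on its median. Of the 34 probe sets 32 passed in KO mice (82.7% of all), 12 higher (15.2% of all) and 20 lower (67.5%), and 32 in WT mice (82.1% of all), 11 higher (14.3%) and 21 lower (67.9%). After quantile normalization 15 were higher (40.5%) and 16 lower (33.6%) in KO, and 15 higher (39.6%) and 14 lower (32.9%) in WT. After centring, 18 were higher (56.6%) and 13 lower (24.8%) in KO, and 18 higher (54.9%) and 10 lower (24.7%) in WT. These shares follow the scaling, and the split of the members followed it too.

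For Aqp4, motoneurons exceeded nerve by 5.55 in KO mice (SE 0.88, adjusted p = 0.00033 by limma) and by 5.48 in WT mice (SE 0.95, adjusted p = 0.00087 by limma). Without replicate 2 of the nerve, its lowest array, the gap was 4.30 (SE 0.18) in KO and 4.50 (SE 0.77) in WT. Slc1a2 was higher in motoneurons by 4.01 (SE 0.24) in KO and 4.30 (SE 0.29) in WT, Aldoc by 3.72 (SE 0.16) in KO and 3.78 (SE 0.14) in WT, and Gfap by 3.24 (SE 0.24) in KO and 3.24 (SE 0.22) in WT. These 4 exceeded the nerve values on every array. In the other direction Slc1a3 stood at -4.97 (SE 0.25) in KO and -4.15 (SE 0.17) in WT, Aldh1l1 at -3.31 (SE 0.27) in KO and -3.20 (SE 0.32) in WT, and Gja1 at -2.36 (SE 0.12) in KO and -2.08 (SE 0.11) in WT, each with no overlap between tissues. The dimmest Slc1a3 probe set (1440491_at) read 2.99 ± 0.094 in KO and 2.84 ± 0.085 in WT motoneurons, against 8.99 ± 0.45 in KO and 9.14 ± 0.25 in WT nerve (SD, n = 3 each).

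Glul differed by -0.67 (SE 0.042) in KO and -0.47 (SE 0.054) in WT as deposited, by -0.19 in KO and 0.011 in WT after quantile normalization and by 1.11 in KO and 1.29 in WT after centring. Slc4a4 differed by -1.35 (SE 0.12) in KO and -0.52 (SE 0.17) in WT as deposited, by -0.53 in KO and 0.21 in WT after quantile normalization and by 0.43 in KO and 1.24 in WT after centring. As deposited, Slc4a4 in WT mice no longer passed without WT nerve replicate 1 (adjusted p = 0.0768 by limma) or replicate 3 (adjusted p = 0.0550). For Glul and Slc4a4 the data do not fix which tissue is higher. Ordered by mean within the motoneuron arrays, KO stood below WT for Slc4a4, Slc1a3, Aqp4, Gja1 and Glul without overlap, and the KO and WT means of Gfap, Aldh1l1, Aldoc and Slc1a2 lay within the spread of the arrays. In nerve, neighbouring KO and WT means lay within that spread for 8 of the 9 genes, all but Gja1.

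**Figure D5:**
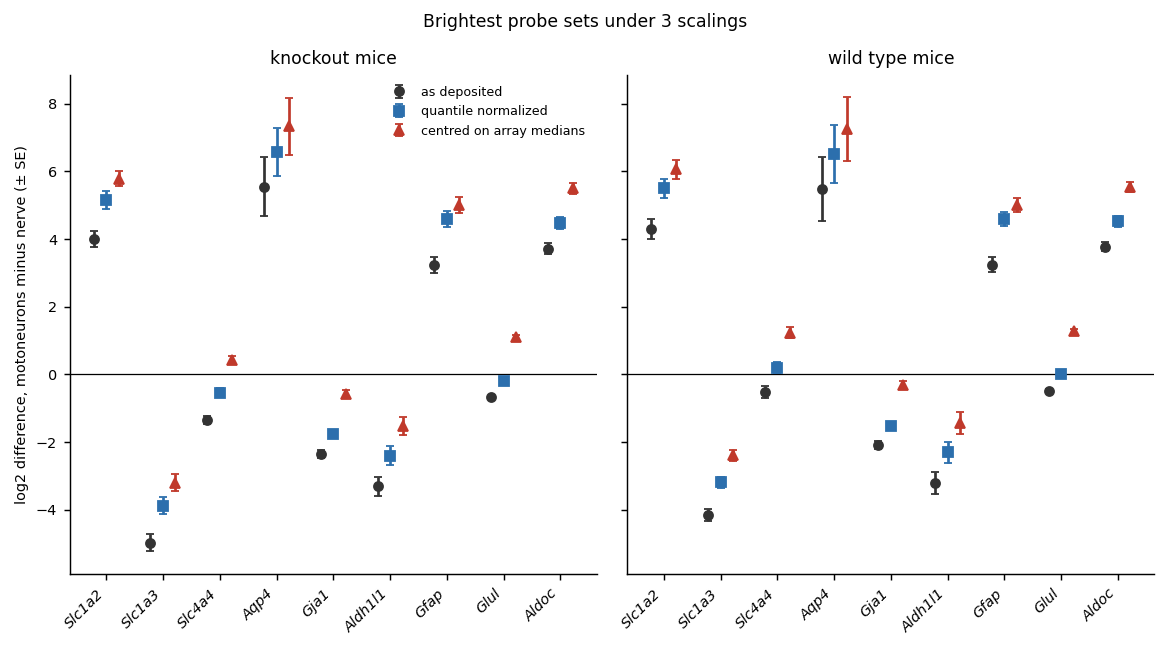
Log2 difference between motoneurons and sciatic nerve (vertical axis, ± SE from limma) for the brightest probe set of each gene in KO mice (left) and WT mice (right), as deposited, after quantile normalization of the 6 arrays of a genotype and after centring on array medians. Aqp4, Slc1a2, Aldoc and Gfap stay above 0 and Slc1a3, Aldh1l1 and Gja1 below 0, while Slc4a4 and Glul cross it.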

How the data were processed

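RNA from captured motoneurons and sciatic nerve (20 ng, amplified and labelled with biotin, with a different column kit for each tissue, per the labels' protocols) was measured on 12 Affymetrix arrays, 3 for each tissue and genotype. The deposited log2 values per probe set were made with Affymetrix Expression Console 1.1, per the submitters' processing notes. Their summarization method is not given in the sources used here. Within a tissue the quantiles of arrays differed by at most 0.105 in motoneurons and 0.113 in nerve, while tissue medians stood apart, so the tissues were read as normalized separately.

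Of 45101 probe sets, 64 controls were left out and 45037 tested, with no filter. Each comparison was fitted over all of them by limma 3.58.1 under R 4.3.3, using lmFit and trended eBayes, two-sided, and adjusted by Benjamini-Hochberg at a threshold of 0.05. Differences are KO minus WT or motoneurons minus nerve. Platform annotation gave 34945 probe sets 1 symbol, 932 several and 9160 none; 34741 were found in the RefSeq table of GRCm38.p6. For lists, each gene was its brightest probe set. The rule for named genes took every probe set of the 9 genes, up to 4 genes of a list by smallest p and the 3 closest profiles. The members and lists were chosen with earlier results of these data known. The fit was tested on simulated data. Array number limits the precision.

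Same-numbered arrays were not treated as pairs, since the labels give only a number and correlations of their deviations ran between -0.079 and 0.31. Alternatives covered scaling, brightness, array weights, covariates, 1 joint fit and each array left out. Figures used matplotlib 3.10.9 in Python 3.11.15.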

Additional observations from a re-analysis of the deposited data

How the results depend on the processing

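Nothing passed at any of the 34 probe sets in motoneurons with all 6 arrays under quantile normalization, centring, brighter probe sets only, no mean trend or any covariate. Calls appeared in 3 other fits. Array weights gave 6 (Slc4a4, Slc1a3, Aqp4, Glul and 2 of Gja1, all lower), a joint fit of the 12 arrays gave 3 (Slc4a4 and 2 of Gja1), and leaving out 1 array gave 0 to 6. The median over the 9 genes ran between -0.30 and -0.14 with 1 array left out and was -0.068 with each gene averaged over its probe sets, -0.59 with beta-actin and -0.39 with 18S as a covariate, both chosen after seeing the data. The number of the 9 genes that read lower ranged from 5 to 9. In nerve and in the interaction 0 passed in each setting; the interaction median ran between -0.40 and -0.076 with 1 array left out. With the replicate block 0 passed in each genotype comparison and 31 in each tissue comparison, with medians of -0.18, 0.011, -0.20, -0.67 and -0.47, which changed no call of the genotype comparisons.

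Of the 34 probe sets in motoneurons, 13 changed sign under some alternative, and 12 of these lay within 1 standard error of 0 with all 6 arrays. The beta-actin covariate took Aldh1l1 to -0.61, Slc1a2 (1438194_at) to -0.38 and Gfap to -0.31. Of values beyond 1 standard error, those that changed sign in the genotype comparisons were Slc1a2 (1439940_at) 0.013 with the Xist covariate, Slc1a1 0.00045 after quantile normalization, Fbln1 -0.075 with the 18S covariate, and Gfap (1440142_s_at) in nerve, -0.043 to 1.34 with 1 array left out. Between tissues the median over the 9 genes was -0.19 (quantile) and 1.11 (centring) in KO, and 0.21 and 1.29 in WT, or -0.86 with each gene averaged over its probe sets. Glul turned to 1.11 in KO and to 1.29 (centring) and 0.011 (quantile) in WT, and Slc4a4 to 0.43 in KO and to 1.24 and 0.21 in WT. Among brighter probe sets 20 of 21 passed in KO. The cause was not tested. Signal over background was not used here.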
